A study of Homo sapiens with 34 samples.

Results

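The genes described here encode 9 haematopoietic cytokine receptors, KIT, FLT3, CSF1R, EPOR, CSF3R, CSF2RB, IL3RA, IL6ST and IL7R, followed through a blood-forming culture of human embryonic stem cells to which no haematopoietic cytokine was added. They were chosen by gene symbol and make up 9 of the 20255 genes in the deposited table, each with 1 row. All 9 passed the filter on low values, 10 or more in no fewer than 3 samples, and were among the 19788 genes tested. FLT3 passed that filter only through its values on days 0 and 16, and IL7R only through those on days 9 to 16. The question was when each receptor gene appeared in cells that carry CD43, a surface glycoprotein of blood cells, and how far it marked those cells off from the CD43- cells of the same culture.

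Cytokine receptors carry signals for survival, division and lineage choice into blood cells. KIT, FLT3 and CSF1R are receptor tyrosine kinases, which phosphorylate themselves and their partners once a ligand brings a pair of receptors together. EPOR, CSF3R, CSF2RB, IL3RA, IL6ST and IL7R belong to the cytokine receptor family without kinase activity of its own. These chains hold JAK kinases on their inner side, and the JAKs phosphorylate STAT factors that move to the nucleus. Some chains pair with themselves (EPOR, CSF3R), and others are shared among several ligands (CSF2RB, IL6ST).

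RNA was sequenced from cells derived from H1, an established human embryonic stem cell line. Embryoid bodies (EBs) of H1 cells attached to a collagen IV surface in medium with BMP4 and VEGF, and VEGF was later the only growth factor. Unsorted cells stand for days 0, 2 and 4. Sorting by CD43 gave a positive and a negative population on each of days 6, 9 and 12. The sort of day 16 also used CD45, and its CD43+/CD45+ and CD43-CD45- cells are called day 16 CD43+ and CD43- cells here. Each of these 11 populations had 3 independent biological replicates, and 1 sample of undifferentiated H1 cells made 34 samples. All groups come from this 1 line, which limits how far the levels stand for others.

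The values are GC-normalized tag counts, called normalized values below. Sorted by size, the 34 samples hold the same list of values, each summing to 17856940 with a median of 197, so a value is close to a rank and the reads behind it are unknown. Values were not divided by transcript length, so levels are compared between samples of a gene and not between genes. Differences are given as log2 fold changes of value + 1 with their standard error (SE) from limma. A gene is called at a Benjamini-Hochberg adjusted p below 0.05 and a fold change above 4. The sorting was visible in SPN, the gene of CD43, which ranged from 18 to 328 in the 12 CD43- samples and from 2338 to 9460 in the 12 CD43+ samples. PTPRC, the gene of CD45, reached 8 at most in day 6 CD43+ samples and 634 to 749 on day 9. Replicates 2 and 3 of the day 12 CD43- cells stood apart from replicate 1. Their PTPRC values were 197 and 371 against 4, and their sums over 10 macrophage markers were 4940 and 5939 against 370. Day 6 CD43- replicates differed in the sum of 8 endothelial markers, at 52228, 25104 and 10724 in replicates 1 to 3. In bulk samples, fewer cells of a type and less RNA per cell cannot be told apart.

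RefSeq start sites on GRCh38.p14 were matched for 8 of the 9 genes, with 10 windows of 250 bases before a start, and CSF2RB had no entry. The windows were searched on both strands for 3 strings, AGATAA (bound by GATA factors), GAGGAA (bound by PU.1) and TGTGGT (bound by RUNX factors), none of which contains another. They were present in 3219, 8277 and 3855 of all 35116 such windows in the table of promoters. Among the members, CSF1R has a window at each of 2 starts. The upstream window held none of the strings, and the downstream window held TGTGGT 1 time and GAGGAA 2 times. IL7R held each string 1 time, EPOR held AGATAA 1 time, and FLT3 and the downstream start of CSF3R held GAGGAA 1 time each. KIT, IL3RA, IL6ST and the upstream start of CSF3R held none. CSF1R, whose windows are shown, was called higher in CD43+ cells on 4 of 4 days. So was CSF3R, whose windows are not shown. The IL7R window is shown because it was the only one with all 3 strings. Each window shown is trimmed to the bases outside annotated exons, so that some matches lie outside what is printed. Capitals mark the whole matches that remain, TGTGGT in CSF1R and GAGGAA in IL7R. The RefSeq start of IL7R lies inside the GENCODE gene, downstream of its first annotated start. The stretches are chr5:150113373-150113615 and chr5:150086608-150086804 on the minus strand, and chr5:35856688-35856848 on the plus strand, all 5′ to 3′.
CSF1R upstream start: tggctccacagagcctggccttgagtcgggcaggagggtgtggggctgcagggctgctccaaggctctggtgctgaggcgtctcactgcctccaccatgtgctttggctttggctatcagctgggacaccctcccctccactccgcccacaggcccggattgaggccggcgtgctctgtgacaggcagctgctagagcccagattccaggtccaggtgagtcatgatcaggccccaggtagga
CSF1R downstream start: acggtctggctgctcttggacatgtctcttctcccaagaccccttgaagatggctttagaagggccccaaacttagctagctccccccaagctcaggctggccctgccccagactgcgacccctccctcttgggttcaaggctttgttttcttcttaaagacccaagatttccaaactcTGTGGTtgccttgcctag
IL7R: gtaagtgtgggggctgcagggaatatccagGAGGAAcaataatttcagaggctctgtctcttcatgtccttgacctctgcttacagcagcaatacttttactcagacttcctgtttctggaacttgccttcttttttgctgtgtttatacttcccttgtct
The gene-level values do not say which of the CSF1R starts was used, and a match of letters is no evidence of binding.

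Between CD43+ and CD43- cells, CSF1R and CSF3R were called higher in CD43+ cells on all 4 days. CSF2RB joined them from day 9 and IL7R from day 12. KIT was called higher on day 9 and on no other day, and IL6ST was called lower on day 12. EPOR, FLT3 and IL3RA were called on none of the days. Of the 9 genes, 2 were called higher and 0 lower on day 6, when 4.69% of all genes tested were called higher and 7.85% lower. On day 9 these numbers were 4 and 0 members, against 8.65% and 12.8% of all genes. On day 12 they were 4 and 1 members, against 11.8% and 14.4%. On day 16 they were 4 and 0 members, against 12.2% and 13.6%. At an unadjusted p below 0.05 in limma, the members lower in CD43+ cells numbered 1, 2 and 2 on days 6, 9 and 16. The median log2 fold change of the 9 genes was 0.49, 0.95, 1.39 and 1.92 on days 6, 9, 12 and 16, and that of all genes tested 0.14, 0.24, 0.22 and 0.14.

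**Figure D1:**
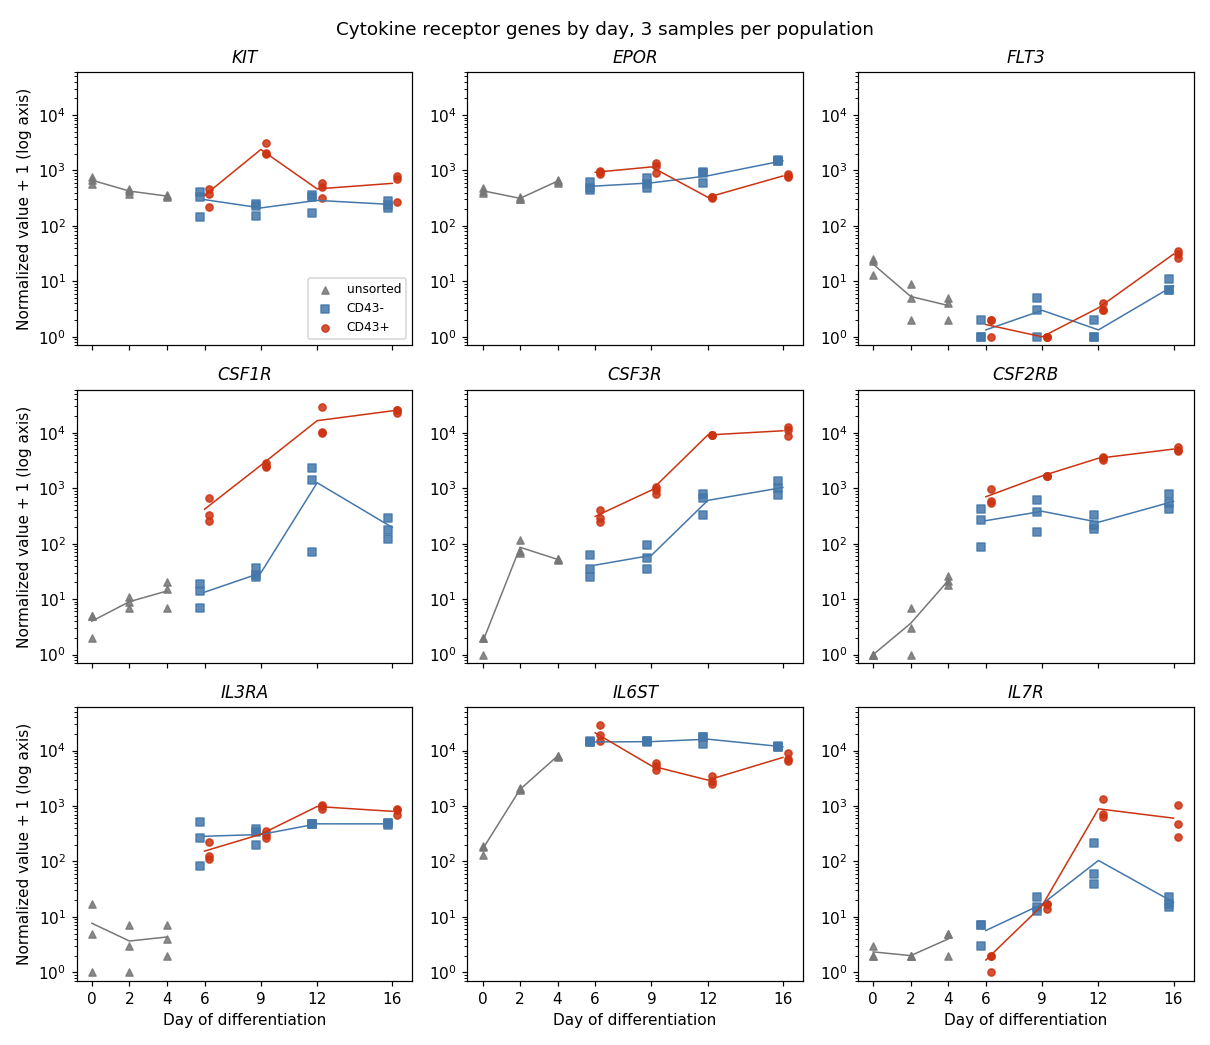
Normalized value + 1 (log axis) of each of the 9 receptor genes against the day of differentiation, with 1 point per sample and lines through the means of 3 samples, for unsorted (grey triangles), CD43- (blue squares) and CD43+ cells (red circles). The CD43+ means of CSF1R, CSF3R and CSF2RB climb to day 16, with overlapping samples on days 12 and 16 for CSF1R and CSF3R. KIT has its highest CD43+ values on day 9, from 1991 to 3108, and IL6ST stands lower in CD43+ than in CD43- cells from day 9 on.

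**Figure D2:**
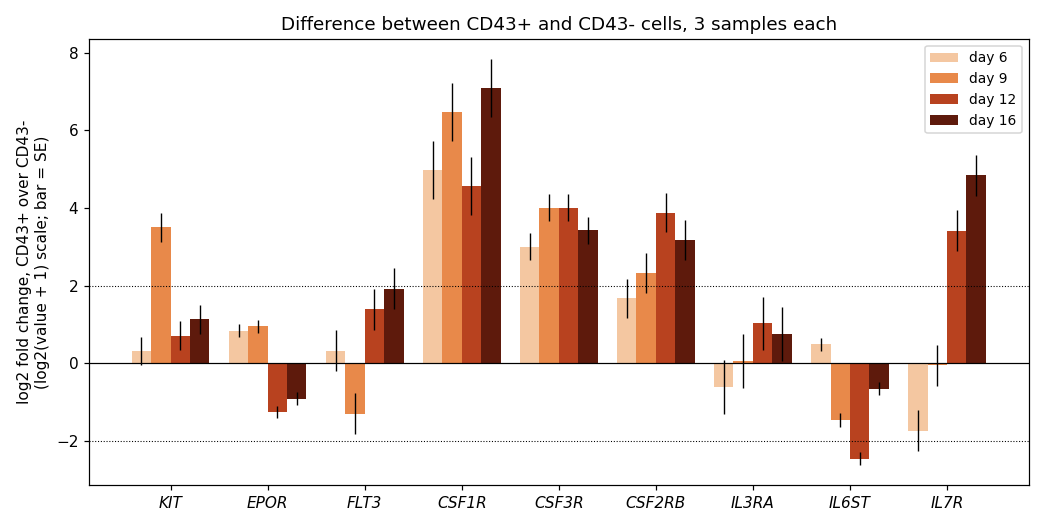
Log2 fold change of CD43+ over CD43- cells (bars) with its standard error (lines) for each receptor gene on days 6, 9, 12 and 16, with dotted lines at the fold change threshold of 4 in each direction. CSF1R stands between 4.57 and 7.08 on all 4 days, while EPOR and IL6ST are above 0 on day 6 and below 0 on days 12 and 16.

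KIT, the receptor of stem cell factor, lies at chr4:54657918-54740715 on the plus strand of GRCh38 (ENSG00000157404). Blood progenitors and mast cells depend on it, and pluripotent cells also carry it. Undifferentiated H1 cells had a value of 836, and the unsorted samples had 684, 564 and 754 on day 0, 469, 372 and 431 on day 2, and 346, 327 and 359 on day 4. In CD43+ cells the values were 464, 374 and 222 on day 6, then 1991, 2064 and 3108 on day 9, then 316, 582 and 492 on day 12 and 704, 786 and 264 on day 16. KIT was thus high in CD43+ cells on a single sampled day, and no sample of any other population reached the lowest of these 3 values. In CD43- cells it stayed between 146 and 416 over all 12 samples. On day 9 the log2 fold change of CD43+ over CD43- cells was 3.50 (SE 0.37, adjusted p = 4.59e-09). It was 0.32 (SE 0.37, adjusted p = 0.5) on day 6 and 0.71 (SE 0.37, adjusted p = 0.0875) on day 12, with overlapping groups. On day 16 it was 1.13 (SE 0.37, adjusted p = 0.00857) below the fold threshold, and replicate 3 of the CD43+ cells lay among the CD43- samples. Within CD43+ cells KIT rose by 2.79 on the log2 scale from day 6 to day 9 (SE 0.37, adjusted p = 1.36e-06) and fell by 2.38 from day 9 to day 12 (SE 0.37, adjusted p = 4.43e-06). From day 12 to day 16 it differed by 0.23 (SE 0.37, adjusted p = 0.647).

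The 3 CD43+ samples with high KIT on day 9 also had summed values of 11 erythroid markers from 126059 to 214486 and of 8 megakaryocyte markers from 40321 to 45389. On day 12 the erythroid sums were 5949, 15307 and 10526 and the megakaryocyte sums 12054, 44300 and 27361 in replicates 1 to 3, in the same order as KIT. On day 16 the erythroid sums were 10649, 12759 and 5549 and the megakaryocyte sums 67867, 104482 and 27888, again in the order of KIT. Neither sum had the order of KIT on day 6, and on day 9 the erythroid sums of 214486, 126059 and 211589 did not follow it while the megakaryocyte sums did. The mast cell marker sum did not follow that order on day 16, at 2516, 1791 and 3908. On day 6 the erythroid sum was 114836 to 125702 in CD43+ cells, and KIT overlapped between CD43+ and CD43- cells. The part of erythroid cells, megakaryocytes and mast cells in the KIT values was not tested.

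CSF1R, the receptor of CSF1 and IL34 on monocytes and macrophages, lies at chr5:150053291-150113372 on the minus strand (ENSG00000182578). It was at 1 to 19 in all 9 unsorted samples of days 0 to 4 and at 10 in undifferentiated cells. In CD43+ cells the values were 658, 258 and 333 on day 6, 2865, 2510 and 2399 on day 9, 29020, 10439 and 10082 on day 12, and 25862, 25862 and 22836 on day 16. The CD43- values were 13, 18 and 6, then 36, 24 and 26, then 71, 1379 and 2314, then 119, 290 and 177 on the same days. The populations did not overlap on any day, and on day 12 a single CD43- sample remained near the level of day 9. The log2 fold change of CD43+ over CD43- cells was 4.97 on day 6 (SE 0.75, adjusted p = 3.74e-06), 6.47 on day 9 (adjusted p = 2.41e-08), 4.57 on day 12 (adjusted p = 5.22e-06) and 7.08 on day 16 (adjusted p = 3.68e-09), each with an SE of 0.75. With CD43- replicates 2 and 3 of day 12 left out, the day 12 difference was 7.65 (adjusted p = 2.64e-10), and with replicate 1 left out it was 3.02 (adjusted p = 8.62e-06). Within CD43+ cells CSF1R rose by 2.75 from day 6 to day 9 (adjusted p = 0.00578) and by 2.49 from day 9 to day 12 (adjusted p = 0.00603). The second of these steps was 1.99 and no longer past the fold threshold without CD43+ replicate 1 of day 12. From day 12 to day 16 the groups overlapped (0.77, SE 0.75, adjusted p = 0.427).

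FLT3, the receptor of FLT3 ligand on early and lymphoid progenitors, lies at chr13:28003274-28100592 on the minus strand (ENSG00000122025). Its values were low throughout, with the highest at 35. They were 12, 22 and 24 on day 0, 4, 1 and 8 on day 2, and 3, 4 and 1 on day 4. In CD43+ cells they were 1, 0 and 1 on day 6, 0 in all 3 samples on day 9, 2, 2 and 3 on day 12, and 25, 30 and 35 on day 16. CD43- cells had 0 to 4 on days 6 to 12 and 6, 10 and 6 on day 16. FLT3 thus stood higher on day 16 than in the earlier sorted samples, in both populations. In CD43+ cells it rose from day 12 to day 16 by 3.22 (SE 0.53, adjusted p = 2.56e-05). On day 16 the CD43+ samples lay above the CD43- samples by 1.92 (SE 0.53, adjusted p = 0.00243), just under the fold threshold. That difference passed the threshold, at 2.13 and 2.04, without CD43- replicate 2 or without CD43+ replicate 1. All FLT3 calls between neighbouring days and against day 4 were lost with a pseudocount of 10, which moved the step from day 12 to day 16 to 1.69.

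EPOR, the erythropoietin receptor, lies at chr19:11377205-11384342 on the minus strand (ENSG00000187266) and overlaps RGL3 on the same strand, so reads of that pair are uncertain. Red cell precursors need it to survive. It was present from the start, with 327 in undifferentiated cells and 484, 424 and 384 on day 0, and with 305, 309 and 325 on day 2 and 674, 600 and 654 on day 4. In CD43+ cells the values were 867, 942 and 972 on day 6, 1387, 902 and 1183 on day 9, 326, 332 and 324 on day 12, and 754, 846 and 782 on day 16. In CD43- cells they were 490, 446 and 630, then 568, 732 and 490, then 588, 895 and 918, then 1558, 1450 and 1476. The CD43+ samples lay above the CD43- samples on days 6 and 9 and below them on days 12 and 16, without overlap on any of the 4 days. The log2 fold changes were 0.84 (adjusted p = 7.74e-05), 0.95 (adjusted p = 8.04e-06), -1.26 (adjusted p = 8.30e-08) and -0.91 (adjusted p = 1.29e-05) on days 6, 9, 12 and 16, each with an SE of 0.16 and a fold change below 4. Within CD43+ cells the difference from day 9 to day 12 was -1.80 (SE 0.16, adjusted p = 4.75e-10) and that from day 12 to day 16 was 1.27 (adjusted p = 4.71e-07), both below the fold threshold. The erythroid marker sum in CD43+ cells was 126059 to 214486 on day 9 and 5949 to 15307 on day 12, and the replicates had the same order in both on day 9 but not on days 6, 12 and 16. Its part in the EPOR values was not tested. On day 16 the CD43- cells held the highest EPOR values of all 34 samples, with erythroid sums of 1591 to 3483.

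CSF3R, the receptor of granulocyte colony-stimulating factor on neutrophils, lies at chr1:36466043-36483278 on the minus strand (ENSG00000119535). It was at 0, 1 and 1 on day 0, 117, 72 and 66 on day 2 and 49, 52 and 52 on day 4. CD43+ cells had 396, 248 and 284 on day 6, 1046, 930 and 791 on day 9, 8946, 9202 and 9202 on day 12, and 11160, 8656 and 12784 on day 16. CD43- cells had 34, 24 and 62, then 54, 94 and 34, then 334, 675 and 798, then 752, 1332 and 1004. CSF3R stood higher on days 12 and 16 than on days 6 and 9 in both populations, with each CD43+ sample above every CD43- sample of its day. The log2 fold change was 3.00 on day 6 (adjusted p = 8.95e-08), 4.01 on day 9 (adjusted p = 1.72e-10), 4.01 on day 12 (adjusted p = 1.17e-10) and 3.42 on day 16 (adjusted p = 2.56e-09), each with an SE of 0.35. In CD43+ cells the called step was that from day 9 to day 12, by 3.31 (SE 0.35, adjusted p = 1.29e-08). The sum of 9 neutrophil markers in those cells was 118 to 165 on day 6, 22494 to 30494 on day 9 and 190960 to 218263 on day 12. Most of the day 9 sum was 1 gene, MPO, at 29015, 20412 and 20412 in replicates 1 to 3. On day 12 MPO was at 90700, the highest value of any gene, in each CD43+ sample. In CD43- cells the sum was 26 to 71 on day 6, 55 to 88 on day 9, 120 to 7333 on day 12 and 6344 to 20594 on day 16. The CD43- replicates had the same order in this sum and in CSF3R on days 9, 12 and 16 but not on day 6. Day 16 CD43- samples also had megakaryocyte sums of 5027 to 15753. The part of blood cells in the CD43- values was not tested. On day 6, when CSF3R was called, 3 of the 8 neutrophil markers tested (LTF, MPO and S100A9) were called higher in CD43+ than in CD43- cells. The share of all genes called higher was 4.69%. Of the 9 markers, 3 or 4 were listed at 0 in each CD43+ sample and 5 to 7 in each CD43- sample. The part of neutrophils in the CSF3R values was not tested.

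CSF2RB, the common beta chain of the IL-3, GM-CSF and IL-5 receptors, lies at chr22:36913628-36940449 on the plus strand (ENSG00000100368). It was listed at 0 in all day 0 samples, at 2, 6 and 0 on day 2, and at 25, 20 and 17 on day 4. CD43+ cells had 965, 594 and 542 on day 6, 1632, 1690 and 1680 on day 9, 3630, 3527 and 3250 on day 12, and 4938, 4758 and 5534 on day 16. CD43- cells had 428, 264 and 85, then 620, 160 and 367, then 182, 213 and 332, then 418, 774 and 542. The CD43+ samples were the higher ones on each day, and the CD43- samples differed widely among themselves on days 6 and 9. The log2 fold change was 1.67 on day 6 (SE 0.51, adjusted p = 0.00824) below the fold threshold, and it was 2.17 and past it without CD43- replicate 1. It was 2.33 on day 9 (adjusted p = 0.000265), a call that was lost at 1.80 without CD43- replicate 2. On days 12 and 16 it was 3.88 (adjusted p = 1.79e-07) and 3.18 (adjusted p = 4.39e-06), and leaving out any 1 sample kept these calls.

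IL3RA, the alpha chain that pairs with CSF2RB to bind IL-3, lies at chrX:1336616-1382689 on the plus strand (ENSG00000185291), in the region that X and Y share. It was at 0 to 16 in the 9 unsorted samples of days 0 to 4. CD43+ cells had 221, 126 and 110 on day 6, 302, 267 and 355 on day 9, 993, 1036 and 898 on day 12, and 832, 874 and 692 on day 16. CD43- cells had 506, 260 and 83, then 378, 197 and 339, then 478, 478 and 469, then 448, 488 and 487. IL3RA thus appeared in both populations, and only on days 12 and 16 did all CD43+ samples lie above the CD43- samples. The log2 fold change of CD43+ over CD43- cells was -0.61 (adjusted p = 0.491), 0.06 (adjusted p = 0.952), 1.03 (adjusted p = 0.189) and 0.75 (adjusted p = 0.35) on days 6, 9, 12 and 16, each with an SE of 0.69. Against day 4, CD43- cells of day 6 were called higher for IL3RA, by 5.87 (SE 0.69, adjusted p = 2.02e-07), and for CSF2RB, by 3.32 (SE 0.51, adjusted p = 8.83e-06).

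In CD43- cells of days 6 and 9, CSF2RB, IL3RA and KIT ordered the replicates alike. On day 6 each of these genes was highest in replicate 1 and lowest in replicate 3, and on day 9 each was highest in replicate 1 and lowest in replicate 2. The sum of 8 endothelial markers had the same order, at 52228, 25104 and 10724 on day 6 and 32154, 15672 and 20495 on day 9, with none of the 8 markers at 0. Endothelial cells are also known to carry the IL-3 receptor. With 3 samples a day these orders are a description, and the part of endothelial cells in the values was not tested. Later the order did not hold for all of these genes. On day 12 the endothelial sums were 18585, 14759 and 14442, opposite to CSF2RB and KIT, with IL3RA at 478, 478 and 469. On day 16 the sums were 22168, 26551 and 25819, an order that CSF2RB and IL3RA shared and KIT did not. In CD43+ cells, 1 of the 8 endothelial markers was called lower than in CD43- cells on day 6 and 5 on each later day, and 0 were called higher.

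**Figure D3:**
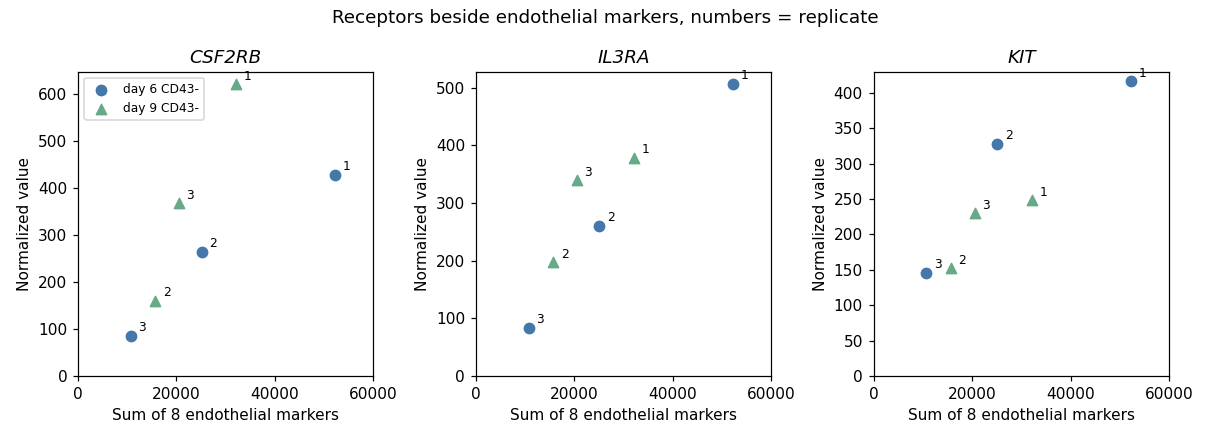
Normalized value of CSF2RB, IL3RA and KIT against the sum of 8 endothelial markers in the 6 CD43- samples of days 6 (circles) and 9 (triangles), with the replicate number beside each point. Within each day the replicates fall in the same order on both axes in all 3 panels.

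IL6ST, or gp130, the signalling chain shared by the receptors of IL-6, IL-11, LIF and oncostatin M, lies at chr5:55935095-55994993 on the minus strand (ENSG00000134352). An antisense gene, AC008914.1, overlaps it, so the strand of its reads is uncertain. It climbed before the first sort, from 128, 185 and 180 on day 0 to 1913, 1996 and 2069 on day 2 and 8086, 8086 and 7778 on day 4. CD43- cells had 14016 to 14685 on days 6 and 9, 13324 to 17368 on day 12 and 11508 to 12014 on day 16. CD43+ cells had 14685, 18772 and 29026 on day 6, 4510, 5252 and 6071 on day 9, 3402, 2848 and 2535 on day 12, and 7163, 8975 and 6369 on day 16. IL6ST therefore stood at 14016 or more in all 6 sorted samples of day 6, and it was lower in CD43+ than in CD43- cells from day 9 on, without overlap. The log2 fold change of CD43+ over CD43- cells was 0.49 on day 6 (adjusted p = 0.0204), -1.46 on day 9 (adjusted p = 3.90e-08), -2.45 on day 12 (adjusted p = 1.56e-12) and -0.65 on day 16 (adjusted p = 0.00171), each with an SE of 0.17, and only that of day 12 passed the fold threshold. CD43+ samples were ordered alike in IL6ST and in the sum of 10 mesenchymal markers on day 6, when that sum was 59622, 73917 and 155488 in replicates 1 to 3, and on day 9, when it was 3823, 8171 and 21573, but not on days 12 and 16. The sum was 202441 to 322573 in CD43- cells of all days, and its part in the IL6ST values was not tested. In CD43+ cells the difference from day 6 to day 9 was -1.93 (SE 0.17, adjusted p = 2.82e-09), below the fold threshold, and it passed at -2.16 without day 6 replicate 1 and at -2.04 without day 9 replicate 3.

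IL7R, the alpha chain of the IL-7 receptor, which lymphoid cells need, lies at chr5:35852695-35879603 on the plus strand (ENSG00000168685). It was at 0 to 4 in unsorted samples. CD43+ cells had 1, 1 and 0 on day 6, 13, 16 and 16 on day 9, 1316, 702 and 644 on day 12, and 468, 275 and 1061 on day 16. CD43- cells had 6, 6 and 2, then 14, 12 and 22, then 38, 58 and 213, then 14, 16 and 22. The gene was near the bottom of the table until day 9 and then stood high in CD43+ cells, with all CD43+ samples of days 12 and 16 above every other sample. The log2 fold change of CD43+ over CD43- cells was -1.73 on day 6 (adjusted p = 0.00819) at values of at most 6 (called at -2.14 without CD43- replicate 3), -0.05 on day 9 (adjusted p = 0.947), 3.41 on day 12 (adjusted p = 2.57e-06) and 4.84 on day 16 (adjusted p = 7.99e-09), each with an SE of 0.53. Within CD43+ cells it rose by 5.72 from day 9 to day 12 (SE 0.53, adjusted p = 1.19e-09). From day 12 to day 16 the groups overlapped (-0.71, SE 0.53, adjusted p = 0.299).

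IL7R is known as a lymphoid gene, while CD3D, of T cells, and CD79A, of B cells, had their highest CD43+ values on day 9, before IL7R. CD3D was at 174, 106 and 166 in day 9 CD43+ samples, at 0, 1 and 2 on day 12 and at 10, 2 and 2 on day 16. CD79A was at 88, 76 and 113 on day 9 and at 18 to 46 in the 6 CD43+ samples of days 12 and 16. Of 11 lymphoid markers in the table, 8 were called higher in CD43+ than in CD43- cells on day 9, 5 on day 12 and 4 on day 16. Their summed values were 1712 to 1795, 3791 to 5105 and 6263 to 7845. The sum of 10 macrophage markers was 84399, 25217 and 19087 on day 12 and 58242, 52378 and 94922 on day 16, in the order of IL7R on both days. The lymphoid sums (6382, 6263 and 7845) and the sums of 9 neutrophil markers (194821, 156854 and 217313) had that order on day 16 but not on day 12. All 10 macrophage markers were called higher in CD43+ than in CD43- cells on both days. In the day 12 CD43- samples the macrophage sum was 370, 4940 and 5939, and IL7R, CSF1R and CSF3R all had the same order. So did the neutrophil sums of 120, 864 and 7333 and the megakaryocyte sums of 213, 452 and 1170. The part of these cell types in the values was not tested. In day 9 CD43+ cells the macrophage sum was 854 to 1311 and CSF1R was already at 2399 to 2865. In day 9 CD43- cells the sum was 684 to 2052, with CSF1R at 24 to 36. In day 6 CD43- cells it was 594 to 3482, with CSF1R at 6 to 18. In the CD43- samples of these days, 3 to 5 of the 10 markers were at 0, C1QA among them in each sample. Replicates 1 to 3 had sums of 3482, 2168 and 594 on day 6 and 2052, 684 and 1075 on day 9. The sum of 8 endothelial markers had the same order on both days. The part of endothelial cells in the macrophage sum was not tested. Of the 10 macrophage markers, 0 were called higher in CD43+ than in CD43- cells on day 6 and 5 on day 9. On each of these days 1 was called lower, MSR1 on day 6 and MRC1 on day 9.

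**Figure D4:**
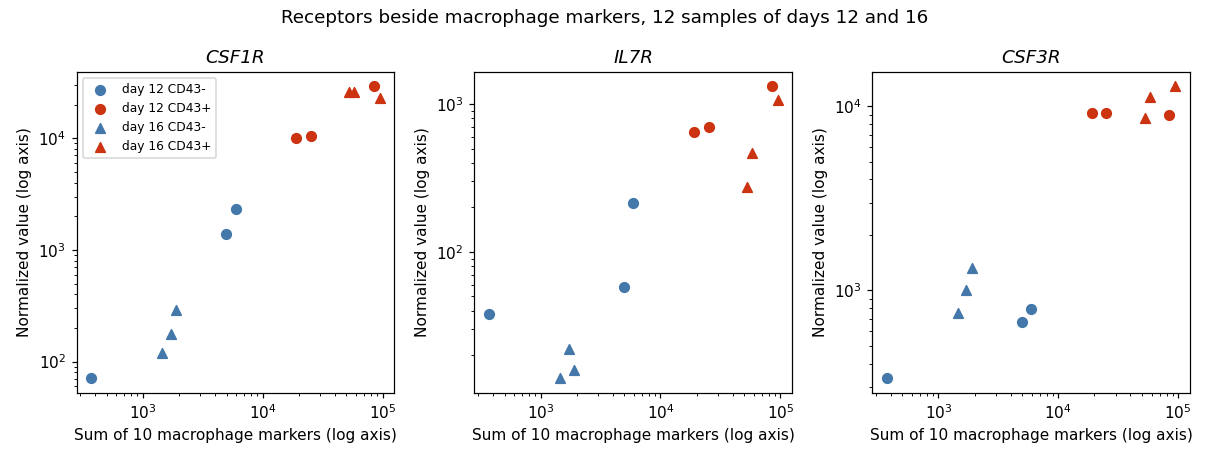
Normalized value of CSF1R, IL7R and CSF3R (log axes) against the sum of 10 macrophage markers (log axes) in the 12 sorted samples of days 12 (circles) and 16 (triangles), with CD43- samples in blue and CD43+ samples in red. CSF1R and IL7R of day 12 CD43- replicates 2 and 3, with sums of 4940 and 5939, lie between replicate 1 and the CD43+ samples.

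The onset of a gene was taken as the first of days 6, 9, 12 and 16 on which CD43+ cells were called higher than day 4 cells without overlap. The 4 comparisons share the day 4 samples, which were unsorted. By this rule CSF1R, CSF3R, CSF2RB and IL3RA had their onset on day 6, KIT and IL7R on day 9 and FLT3 on day 16. EPOR and IL6ST had none, as neither passed the fold threshold as higher than day 4 on any of these days. An onset by this rule holds for 7 of the 9 genes, and the share of all genes meeting it is not reported here. Day 6 CD43- cells were also called higher than day 4 for IL3RA, by 5.87, and for CSF2RB, by 3.32. FLT3 was at 12 to 24 on day 0, against 25 to 35 in day 16 CD43+ cells. KIT too was present before its onset day, at 836 in undifferentiated cells and 564 to 754 on day 0. Its day 4 values, against which the onset was taken, were 327 to 359, and those of day 9 CD43+ cells 1991 to 3108. On day 6 the log2 fold changes of CD43+ cells against day 4 were 4.91 for CSF1R (adjusted p = 4.37e-06), 2.55 for CSF3R (adjusted p = 1.13e-06), 4.98 for CSF2RB (adjusted p = 8.86e-09) and 5.26 for IL3RA (adjusted p = 5.47e-07). The day 9 onset of IL7R, 2.11 (SE 0.53, adjusted p = 0.00118), rests on values of 13 to 16 against 1 to 4, and it was lost at 1.67 without day 4 replicate 1. By day 16 these differences had grown to 10.92 for CSF1R, 7.69 for CSF3R, 7.89 for CSF2RB, 7.70 for IL3RA and 7.13 for IL7R (highest adjusted p = 1.45e-10). Against day 4, 4 members were called higher and 0 lower on day 6, with 6.80% and 7.73% of all genes. There were 6 and 0 on day 9 with 10% and 11.7%, 5 and 0 on day 12 with 15.3% and 15.9%, and 6 and 0 on day 16 with 12.7% and 14.0%. At an unadjusted p below 0.05, 2 members were lower on each of days 6, 9 and 12, with 0 lower on day 16. FLT3 passed the threshold as lower on day 9, at -2.16, without day 4 replicate 3.

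Between neighbouring days in CD43+ cells, 3 members were called higher and 0 lower from day 6 to day 9 (KIT, CSF1R and IL7R), when 3.56% of all genes were called higher and 3.97% lower. From day 9 to day 12, 3 were called higher (CSF1R, CSF3R and IL7R) and 1 lower (KIT), against 8.45% and 6.54%. From day 12 to day 16, 1 was called higher (FLT3) and 0 lower, against 3.79% and 5.26%, with 3 higher and 0 lower at an unadjusted p below 0.05. CSF2RB and IL3RA had no called step between neighbouring days. All CD43+ samples of a day nonetheless lay above those of the sampled day before, up to day 16 for CSF2RB and up to day 12 for IL3RA. The highest CD43+ mean fell on day 6 for IL6ST, on day 9 for KIT and EPOR, on day 12 for IL3RA and IL7R, and on day 16 for FLT3, CSF1R, CSF3R and CSF2RB. For CSF1R, CSF3R, CSF2RB, IL3RA and IL7R, the lowest adjusted p between days 12 and 16 was 0.299, that of IL7R.

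Before the first sort, CSF3R rose from day 0 to day 2 by 5.71 (SE 0.35, adjusted p = 7.60e-13) and IL6ST by 3.61 (SE 0.17, adjusted p = 4.11e-15), while FLT3 fell by 2.13 (SE 0.53, adjusted p = 0.00239). CSF2RB was called too, at 2.20, without day 2 replicate 3. The FLT3 call was lost at -1.95 without day 0 replicate 3 and at -1.54 without day 2 replicate 2. Of all genes, 4.40% were called higher and 3.48% lower in that step. From day 2 to day 4, CSF2RB rose by 2.96 (SE 0.51, adjusted p = 4.23e-05) and IL6ST rose 4.01-fold (adjusted p = 5.61e-10), with 4.97% of all genes called higher and 4.53% lower. The IL6ST fold change sat on the threshold, and the call was lost without day 2 replicate 1, day 4 replicate 1 or day 4 replicate 2.

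In CD43- cells, CSF2RB and IL3RA were the 2 members called from day 4 to day 6, when 7.71% of all genes were called in either direction. From day 6 to day 9 limma called 0 members, 1 was higher at an unadjusted p below 0.05, and 1.75% of all genes were called. From day 9 to day 12, 3 were called (7.33% of all genes), with CSF1R higher by 4.39 (SE 0.75, adjusted p = 5.44e-05), CSF3R by 3.32 (SE 0.35, adjusted p = 1.02e-07) and IL7R by 2.26 (SE 0.53, adjusted p = 0.0016). Without replicates 2 and 3 of day 12, those with the high macrophage sums, the values were 1.30 (adjusted p = 0.159) for CSF1R, 2.56 (adjusted p = 0.000463) for CSF3R and 1.24 (adjusted p = 0.19) for IL7R. The lone remaining sample is then assumed to vary like the other groups. From day 12 to day 16, FLT3 was called higher by 2.69 (SE 0.53, adjusted p = 0.000184) and IL7R lower by 2.13 (adjusted p = 0.0019), and 10.4% of all genes were called. CSF1R was called lower at -3.28 without day 12 replicate 1. The IL7R call was lost at -1.41 without day 12 replicate 3, and just under the fold threshold without day 16 replicate 1.

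Whether the CD43 difference itself changed between days was tested as an interaction. From day 6 to day 9, 1 member changed, KIT, by 3.19 (SE 0.52, adjusted p = 8.26e-05), while 7.39% of all genes were called. From day 9 to day 12, 4 members changed, against 9% of all genes. The KIT difference changed by -2.79 (SE 0.52, adjusted p = 0.000201) and that of EPOR by -2.21 (SE 0.22, adjusted p = 4.55e-08). FLT3 changed by 2.69 (SE 0.75, adjusted p = 0.00802) at values of at most 4, and IL7R by 3.46 (SE 0.75, adjusted p = 0.000979). From day 12 to day 16, 0 members were called by limma, against 5.03% of all genes, and 2 were higher at an unadjusted p below 0.05. Without CD43- replicate 1 of day 12, the CSF1R difference changed by -3.45 (adjusted p = 0.000379) from day 9 to day 12 and by 4.06 (adjusted p = 0.000152) from day 12 to day 16, both called. Those of EPOR and IL6ST changed sign over the days, and the IL6ST changes of -1.95 to day 9 and -0.99 to day 12 (adjusted p = 3.03e-06 and 0.00328) stayed below the fold threshold, as did that of 1.80 to day 16 (adjusted p = 1.38e-05). The first of these passed it at -2.18 without day 6 CD43+ replicate 1, likewise without CD43+ replicate 2 of day 6, and at -2.06 without CD43+ replicate 3 of day 9. Calls were also gained by FLT3 in the change to day 9 (-2.29 without day 9 CD43- replicate 1) and by CSF2RB in the change to day 12 (2.08 without day 9 CD43- replicate 2).

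Other chains of the cytokine receptor families were called in both directions. Of 34 tested, 4 stood higher and 3 lower in CD43+ cells by the same criteria on day 6, 9 and 7 on day 9, 13 and 8 on day 12, and 16 and 6 on day 16. CSF2RA, the GM-CSF partner of CSF2RB, averaged 271 ± 40.8 (mean ± SD of 3 samples) against 41.3 ± 20.0 on day 6, CD43+ value first (log2 fold change 2.77, adjusted p = 4.56e-08) and at 2251 ± 42.9 against 79.7 ± 22.1 on day 16. IL5RA, the IL-5 partner of CSF2RB and a receptor of eosinophils, was at 522 ± 196 on day 12 in CD43+ cells and at 0 to 4 in the CD43- samples (7.64, adjusted p = 5.76e-11), when the sum of 5 eosinophil markers was 32651 to 66409 in CD43+ cells. On day 12 the lowest CD43+ value was 296 for IL5RA, 1560 for CSF2RA and 898 for IL3RA, the 3 alpha chains that pair with CSF2RB. IL2RG, the common gamma chain that pairs with IL7R, rose before it, at 340.3 ± 7.37 in CD43+ cells and 0 to 2 in the CD43- samples on day 9 (7.55, adjusted p = 4.55e-10), when IL7R was at 13 to 16. Some partners of IL6ST were called lower, while IL27RA, another partner, was called higher on day 12. LIFR, the LIF receptor chain, was at 682 ± 138 in CD43+ and 10211 ± 2291 in CD43- cells on day 6 (-3.90, adjusted p = 7.31e-11) and at 38.3 ± 8.02 against 13861 ± 1744 on day 16 (-8.47, adjusted p = 1.73e-18). OSMR, the oncostatin M receptor chain, and CNTFR, a chain for ciliary neurotrophic factor, were called lower on day 12, by -5.97 and -6.40 (adjusted p = 2.63e-11 and 1.12e-13).

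Of 16 receptor tyrosine kinases other than the members, 0 were called higher in CD43+ cells on any day, and 2, 11, 10 and 11 were called lower on days 6, 9, 12 and 16. At an unadjusted p below 0.05 in limma, 0, 1, 0 and 1 were higher on these days. PDGFRA, a close relative of KIT and CSF1R, was at 109.7 ± 76.7 in CD43+ and 1804 ± 1084 in CD43- cells on day 6 (-4.08, adjusted p = 1.07e-08), and it differed by -6.45 on day 12 (adjusted p = 3.51e-13). FLT1, a VEGF receptor, was at 501 ± 137 against 17710 ± 3321 on day 9 (-5.16, adjusted p = 4.56e-13).

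Of 25 genes of JAK-STAT and receptor signalling, 3, 7, 11 and 10 were called higher in CD43+ cells on days 6, 9, 12 and 16, and 0 were called lower, with 6, 4, 2 and 2 lower at an unadjusted p below 0.05. STAT5A, which EPOR, CSF2RB and IL7R activate, was called on day 6 at 2636 ± 326 against 529 ± 176 (2.36, adjusted p = 1.61e-10). PTPN6, a phosphatase that damps KIT and EPOR signals, stood at 1424 ± 236 against 179 ± 40.7 on day 6 (2.99, adjusted p = 4.97e-10). BTK, a kinase of myeloid and B cells, stood at 2879 ± 265 against 110 ± 37.0 on day 6 (4.75, adjusted p = 1.66e-06). Feedback inhibitors and STAT targets were mixed. Of 13, 1 was called higher and 1 lower on day 6, 1 and 3 on day 9, 1 and 6 on day 12, and 3 and 2 on day 16. SOCS3, an inhibitor that acts on IL6ST, had means of 474 ± 178 in CD43+ and 5294 ± 2017 in CD43- cells on day 9 (-3.46, adjusted p = 2.43e-12), on the side where IL6ST and LIFR were lower too. On day 16 its means were 7788 ± 667 and 6883 ± 124. PIM1, a STAT target, was called lower on day 6 (-3.29, adjusted p = 1.57e-12) and higher on day 16 (2.46, adjusted p = 7.14e-11).

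**Figure D5:**
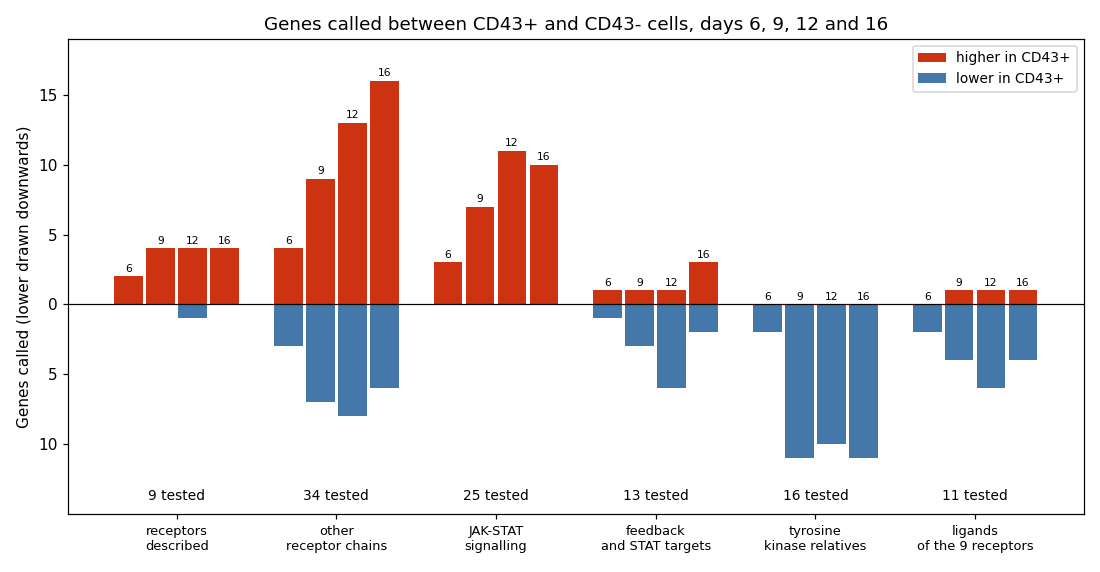
Number of genes called higher (red, upwards) and lower (blue, downwards) in CD43+ than in CD43- cells on days 6, 9, 12 and 16 (day above each bar), for the 9 receptors and 5 related gene lists with the number tested below. Other receptor chains have 16 genes higher and 6 lower on day 16, while the tyrosine kinase relatives have 11 lower and 0 higher.

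Among 15 listed ligands of the 9 receptors, CSF3, CSF2, IL3 and IL5 had no row under these symbols in the deposited table. The other 11 were tested. Those called in CD43+ cells were 0 higher with 2 lower on day 6 (0 and 3 at an unadjusted p below 0.05), 1 and 4 on day 9, 1 and 6 on day 12, and 1 and 4 on day 16. KITLG, the ligand of KIT, was higher in CD43- cells on every day, at 777 ± 352 against 118 ± 53.9 on day 6 and 448 ± 123 against 55.3 ± 14.6 on day 9 (-2.99, adjusted p = 1.38e-07), the day on which KIT was high in CD43+ cells. CSF1, the ligand of CSF1R, had means of 527 ± 202 to 1322 ± 445 in CD43- cells and of 198 ± 64.6 to 266 ± 17.8 in CD43+ cells, and its other ligand IL34 stayed at 10 or less in every sorted sample. Of the ligands that signal through IL6ST, IL11 stood at 1376 ± 633 in CD43- and 87.7 ± 30.1 in CD43+ cells on day 12 (-3.89, adjusted p = 1.16e-06). LIF stood at 1511 ± 455 against 278 ± 84.7 on that day. OSM was the exception, with 181 to 265 in the CD43+ and 2 to 11 in the CD43- samples of day 16 (5.45, adjusted p = 3.88e-08). EPO was at 12 or less and IL7 at 19 or less in every sorted sample, and FLT3LG had means of 58.0 ± 10.4 in CD43+ and 16.3 ± 2.52 in CD43- cells on day 16.

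Across the 33 replicated samples, which share the culture and the sorts, the patterns of some receptors were alike. These correlations of log2(value + 1) are descriptions. CSF3R and CSF1R had a Pearson's r of 0.917, CSF2RB and IL3RA 0.892, and CSF2RB and CSF1R 0.847. KIT had an r of -0.398 with IL6ST. Among all genes tested, those most like CSF2RB were ARHGDIB (r = 0.982), ZZEF1 (0.971) and GMFG (0.968). Those most like CSF1R were TYROBP (0.973), LILRB2 (0.967) and FCER1G (0.966), which are genes of myeloid cells. CSF3R was closest to C5AR1 (0.950), CALHM2 (0.946) and ITGB2 (0.934). Among the genes most like IL7R were CTSA (0.951) and IFNAR2 (0.949). IL3RA was closest to JAK1 (0.950), SUSD6 (0.940) and TGFBR2 (0.939), and IL6ST to CLEC16A (0.954), MEIS2 (0.949) and NCOA6 (0.948). KIT was closest to AHSP (0.822), a chaperone of alpha globin, SLC37A1 (0.819) and OPN1MW2 (0.819). EPOR was closest to LRFN1 (0.862), IFITM3 (0.853) and PRR3 (0.853), and FLT3 to KRCC1 (0.858), BATF2 (0.846) and SLC7A6OS (0.833).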

How the data were processed

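RNA was sequenced by the authors from 34 samples of H1 cells, and bcl2fastq, STAR 2.7, Bowtie2 and RSEM are named in the submitters' processing notes, with GRCh38 as the genome. The deposited values, treated here as a score, are whole-number tag counts after GC normalization, which the authors obtained with RSEM and with full-quantile normalization in EDASeq within and between samples. The GC content of each gene is deposited as a percent. Whether counting used strand is not given in the sources used here. Because every sample holds the same sorted values, raw counts and depth are unknown and no counting interval can be given.

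From these values log2(value + 1) was computed, genes at 10 or more in at least 3 samples were kept (19788 of 20255), and limma 3.58.1 in R 4.3.3 was fitted with a mean-variance trend to 33 samples in 11 populations of 3. A fit for counts would not suit such values. The undifferentiated sample had no replicate and was left out. Comparisons were 20 contrasts of that fit, with p adjusted over all genes tested. The replicates are called biological by the study, and the numbers pair samples by shared deviation (r 0.109 to 0.199 between same-numbered samples) in the day 6 comparison alone. The 9 genes, the lists and the tests were chosen with earlier results of these data known. Named list genes are the 3 with the largest called change in each direction, list and day, and likeness is Pearson's r over 33 samples, giving up to 3 of the highest genes. Some genes these rules select are not reported here. Code was tested on simulated data. Alternatives were a replicate block, other pseudocounts, filters, thresholds and scalings, ranks, smaller fits and the removal of each replicate.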

Additional observations from a re-analysis of the deposited data

Results flagged for a closer look

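In 5 cases the difference between CD43+ and CD43- cells of a receptor gene itself differed between neighbouring days, by the interaction term in limma. For KIT it grew by 3.19 on the log2 scale from day 6 to day 9 (SE 0.52, adjusted p = 8.26e-05) and changed by -2.79 from day 9 to day 12 (SE 0.52, adjusted p = 0.000201), with all 3 CD43+ samples of day 9 above every other sample. For EPOR it changed by -2.21 from day 9 to day 12 (SE 0.22, adjusted p = 4.55e-08), from higher to lower in CD43+ cells. Without the 2 day 12 CD43- samples high in macrophage markers this change was -1.80 and below the fold threshold. For FLT3 it changed by 2.69 (SE 0.75, adjusted p = 0.00802) at values of 0 to 4, and by 0.51 with a pseudocount of 10. For IL7R it changed by 3.46 (SE 0.75, adjusted p = 0.000979), and its CD43+ values went from 13 to 16 on day 9 to 644 to 1316 on day 12. No group had enough samples for a test of single samples that stand apart.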

How the results depend on the processing

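Depth is unknown in these values, which limits FLT3 and IL7R before day 12 most, since a few tags decide values under 20. Of 2896 values of single receptors under alternatives, 2768 kept their direction or stayed uncalled, 31 lost a call, 96 gained 1 and 1 reversed. The value counted as reversed was the change of the CSF3R difference from day 9 to day 12. It was -0.00 (SE 0.50) and uncalled in the main fit, so no called direction was reversed. With normal scores of ranks it was 0.66 in limma (adjusted p = 0.00239), and the cause was not tested. The replicate block, run for all comparisons, kept 180 of 180 receptor results and, within the day 6 populations whose numbers pair, 9 of 9. The number of receptors called moved as follows. The shares of all genes called at these settings, or at an unadjusted p below 0.05, are not reported here. The counts therefore show only how the receptor calls moved. Normal scores of ranks with no fold threshold called 6, 7 and 8 between CD43+ and CD43- cells on days 6, 9 and 16, 7 in day 6 CD43+ cells against day 4, 6, 9 and 3 in the CD43+ steps to days 9, 12 and 16, 4 and 6 in the CD43- steps to days 6 and 16, and 3, 7 and 2 in the changes of the CD43 difference to days 9, 12 and 16. A fold change above 2 called 4 between CD43+ and CD43- cells on day 6, 5, 7 and 3 in the CD43+ steps, and 2 and 1 in the changes to days 9 and 16. A pseudocount of 10 called 0 in the step to day 16 of CD43+ cells, 0 in that of CD43- cells and 0 from day 2 to day 4. A filter at 100, which removes FLT3, called 0 and 1 in these steps to day 16. Fits of only the populations compared called 1 in the CD43- steps to days 12 and 16, as did leaving out the 2 day 12 CD43- samples high in macrophage markers, chosen after seeing the data. Median-of-ratios scaling called 1 from day 2 to day 4 and 2 in the change to day 9, and a pseudocount of 0.1 called 2 there. Leaving out 1 replicate at a time gave 1 to 3 in the CD43- step to day 16, 1 to 2 from day 2 to day 4, 1 to 2 in the change to day 9 and 0 to 1 in that to day 16.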

Other observations

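CSF1R and CSF2RB were present in CD43+ cells before PTPRC, the gene of CD45. On day 6 PTPRC was at 8, 1 and 0 in the 3 CD43+ samples, while CSF1R was at 658, 258 and 333 and CSF2RB at 965, 594 and 542. The undifferentiated H1 sample, outside every comparison, had values of 836 for KIT, 327 for EPOR, 223 for IL6ST, 12 for FLT3, 10 for CSF1R, 8 for IL3RA, 2 for CSF3R and CSF2RB, and 0 for IL7R.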
